A study of Homo sapiens with 6 samples.

Results

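The BCL2 family of apoptosis regulators was followed by RNA-seq through paclitaxel treatment of Hey and SKOV3, established human ovarian cancer cell lines. The 10 members were taken by symbol (BCL2, BCL2L1, MCL1, BCL2A1, BAX, BAK1, BID, BBC3, PMAIP1 and BCL2L11), out of 59008 gene symbols in the table, and all 10 were found. Each line gave 3 libraries: untreated parental cells, polyploid giant cancer cells (PGCCs) after 16 hours in 500 nM paclitaxel, which stabilises microtubules, and 3 days of recovery, and daughter cells after the same treatment and 30 days of recovery. The titles call each daughter library clone 1, so a daughter library is 1 clone, and the title of the SKOV3 PGCC library gives day 7 where its treatment label gives 3 days. There was 1 library per group, so a difference within a line has no replicate error and no test.

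BCL2 proteins decide whether the outer mitochondrial membrane is opened, the step that releases cytochrome c and starts the caspase cascade. The pro-survival proteins BCL2, BCL-XL (made from BCL2L1), MCL1 and BFL1 (BCL2A1) hold the pore-forming effectors BAX and BAK1 in check. The BH3-only proteins BID, PUMA (BBC3), NOXA (PMAIP1) and BIM (BCL2L11) sense stress and either occupy the pro-survival proteins or activate the effectors. Cells that stay long in mitosis under a microtubule drug are known to lose MCL1 protein, and BCL-XL, BIM and NOXA are known to set how long they survive. RNA levels, which were measured here, do not report protein turnover.

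Levels are in TPM, transcript abundance per length scaled to the same nominal total in every library. A difference is the difference of log2(TPM + 1). A gene is called higher or lower where its difference reaches 1 on that scale, which is 2-fold in TPM + 1. At low TPM a ratio above 2 can stay under that line and go uncalled. Examples against parental cells are BBC3 in SKOV3 PGCCs (3.01-fold in TPM) and BCL2 in Hey PGCCs (2.68-fold lower). Calls were made for 14988 genes whose TPM averaged 1 or more over the 6 libraries, all 10 members among them. BCL2A1 got there through Hey alone, and so did BBC3, at 0.416, 1.25 and 1.23 TPM in SKOV3 parental, PGCC and daughter cells. The columns summed to 911825 to 920497 TPM, the genes above 0 numbered 19920 to 25370, and mitochondrial genes took 2.64% to 14.8% of the sum. The table gives TPM without read counts, so no counting error can be set beside a value. Of 10 epithelial and ovarian markers, 6 to 7 were at 1 TPM or more in each Hey library and 9 to 10 in each SKOV3 library, with EPCAM at 1.43 TPM or less and CDH1 and MUC16 near 0 in Hey. Of 10 markers of other cell types, 1 to 4 reached 1 TPM in a library, their sum was 45.9 to 73.2 TPM in Hey and 24.4 to 32.3 TPM in SKOV3, mostly CD68 except in SKOV3 daughter cells, where COL1A1 led at 16.3 TPM. The leukocyte markers PTPRC (at most 0.425 TPM) and CD3E (listed at 0 throughout) were near or at 0, and the part of these markers in the results was not tested. In such bulk libraries, fewer cells expressing a gene and less RNA per cell cannot be told apart.

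MCL1 and BCL2L1 carried most of the pro-survival RNA in both lines. MCL1 stood at 478, 370.4 and 387 TPM in Hey parental, PGCC and daughter cells, and at 341, 201 and 226 TPM in the same states of SKOV3. It was the highest of the 10 members in each of the 6 libraries. BCL2L1 stood at 144, 208 and 288 TPM in Hey parental, PGCC and daughter cells and at 103, 166 and 122 TPM in SKOV3. In both lines the parental library had the most MCL1 and the least BCL2L1.

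BCL2, the founding member, was scarce: 3.32, 1.24 and 5.20 TPM in Hey parental, PGCC and daughter cells and 4.76, 1.17 and 3.03 TPM in SKOV3. The PGCC library was the lowest of its line both times. BCL2A1, an NF-κB target best known from blood cells, stood at 56.8, 131 and 47.9 TPM in Hey parental, PGCC and daughter cells, and at 0, 0.160 and 1.66 TPM in SKOV3. Its 3 Hey values lay far above its 3 SKOV3 values, and SKOV3 parental was the only library of the 6 in which a member was listed at 0.

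Among the effectors, BAX was the more abundant. BAX stood at 246, 187 and 242 TPM in Hey parental, PGCC and daughter cells and at 67.2, 96.6 and 65.9 TPM in SKOV3, so the PGCC library was the lowest in Hey and the highest in SKOV3. BAK1 stood at 10.8, 21.7 and 11.9 TPM in Hey parental, PGCC and daughter cells and at 20.8, 44.7 and 22.5 TPM in SKOV3. The PGCC library was the highest for BAK1 in each line, with the daughter library close to the parental.

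The BH3-only members were led by PMAIP1, with 41.2, 79.8 and 30.3 TPM in Hey parental, PGCC and daughter cells and 74.8, 38.8 and 43.3 TPM in SKOV3. Its highest library was the PGCCs in Hey and the parental cells in SKOV3. BID, which caspase-8 cleaves to link death receptors to mitochondria, stood at 20.3, 21.9 and 20.9 TPM in the Hey states and at 4.26, 8.30 and 21.1 TPM in SKOV3 parental, PGCC and daughter cells. BID thus differed little among Hey states, and SKOV3 daughter cells had a level like that of Hey.

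BBC3, whose product PUMA binds the pro-survival proteins, stood at 5.96, 10.6 and 6.85 TPM in Hey parental, PGCC and daughter cells and at 0.416, 1.25 and 1.23 TPM in SKOV3. BCL2L11, whose product BIM binds every pro-survival member, stood at 1.52, 3.49 and 1.46 TPM in Hey and at 7.22, 3.99 and 3.18 TPM in SKOV3. Both genes were highest in the PGCCs of Hey, whereas BCL2L11 in SKOV3 was highest in the parental cells.

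**Figure D1:**
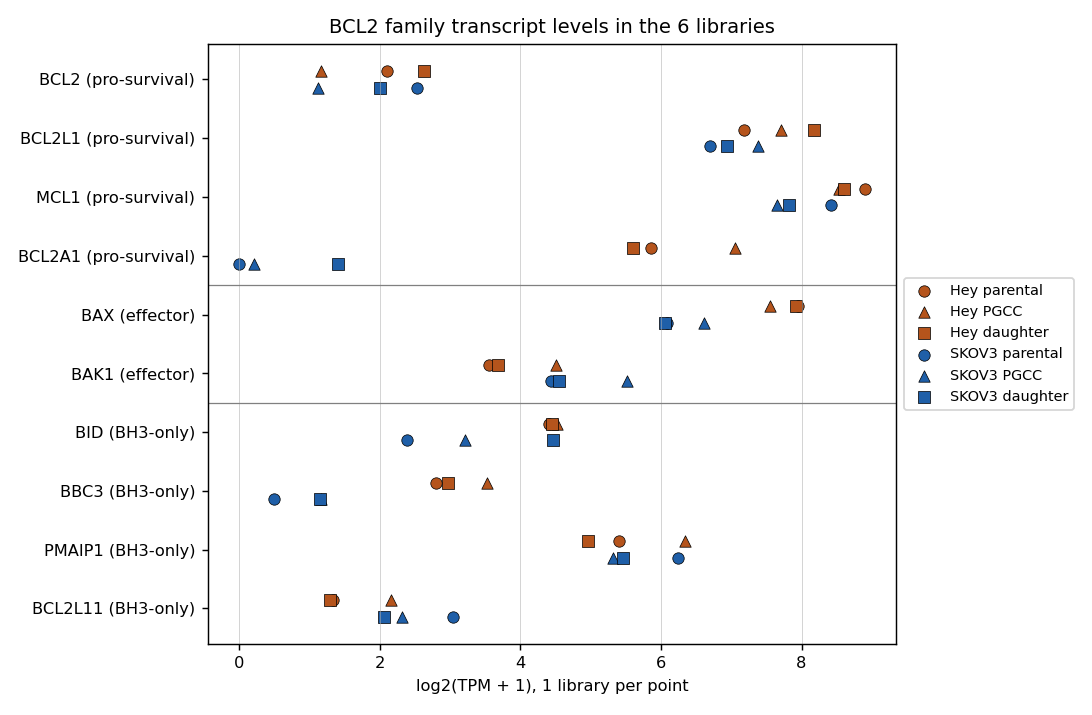
TPM of the 10 members in the 6 libraries, 1 point per library, on a log2(TPM + 1) axis. MCL1 is the highest in every library, and BCL2A1 shows the widest gap between the lines, with 131 TPM in Hey PGCCs against 0.160 in SKOV3 PGCCs.

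The start regions of 3 members are shown because these genes behave differently below: BCL2A1 separates the lines, PMAIP1 goes opposite ways in them, and BAK1 goes the same way. Each is the 250 bases before the RefSeq start (GRCh38.p14), read 5′ to 3′ on the gene's strand, with CG pairs in capitals. BCL2A1 lies on the minus strand at chr15:79971197-79971446, PMAIP1 on the plus strand at chr18:59899746-59899995 and BAK1 on the minus strand at chr6:33580277-33580526. 
BCL2A1: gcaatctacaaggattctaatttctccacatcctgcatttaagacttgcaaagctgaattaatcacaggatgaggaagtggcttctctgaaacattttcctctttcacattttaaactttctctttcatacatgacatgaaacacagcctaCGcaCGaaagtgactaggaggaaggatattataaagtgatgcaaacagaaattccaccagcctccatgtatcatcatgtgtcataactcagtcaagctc
PMAIP1: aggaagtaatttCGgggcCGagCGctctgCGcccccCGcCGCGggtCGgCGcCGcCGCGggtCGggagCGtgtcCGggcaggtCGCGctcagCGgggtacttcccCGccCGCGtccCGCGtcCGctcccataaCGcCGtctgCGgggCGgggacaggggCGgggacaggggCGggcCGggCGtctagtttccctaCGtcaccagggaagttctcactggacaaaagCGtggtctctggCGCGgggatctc
BAK1: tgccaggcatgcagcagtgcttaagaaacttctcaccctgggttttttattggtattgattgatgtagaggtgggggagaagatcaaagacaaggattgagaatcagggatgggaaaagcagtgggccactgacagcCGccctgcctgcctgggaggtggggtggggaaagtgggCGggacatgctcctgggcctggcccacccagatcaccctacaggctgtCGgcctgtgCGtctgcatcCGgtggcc
The BCL2A1 region holds 2 CG pairs, that of PMAIP1 holds 36 and that of BAK1 holds 5, against a median of 11 over 34941 RefSeq start regions of this length. Of those regions, 14.7% have fewer CG pairs than BCL2A1 and 95.2% have fewer than PMAIP1. Of the 10 members, 9 had an entry in that table, and MCL1 did not. Searched on both strands, the NF-κB pattern GGGNNNTTCC occurred among these 9 in PMAIP1 alone and in 5.67% of all regions. The CRE core TGACG occurred in BCL2, BCL2L1, BAX and PMAIP1 and in 21.2% of all regions. A match describes these letters only.

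The first question was how PGCCs differ from the parental cells they came from. In Hey, 1 of 10 members was called, BCL2A1, higher by 1.19 (2.31-fold in TPM), where 12.9% of all genes were called, 7.67% higher and 5.22% lower. In SKOV3, 2 of 10 were called, BAK1 higher by 1.07 and BCL2 lower at -1.41, where 14.9% of all genes were called, 9.94% higher and 4.96% lower. The counts of members were thus close to the shares over all genes. At these settings no member was called in both lines, and 0.834% of all genes were called higher in both and 0.834% lower in both. BCL2 was called lower in both lines with median ratio scaling (-1.04 in Hey, -1.41 in SKOV3) and quantile normalization (-1.26 and -1.51). Without mitochondrial genes BAK1 was called higher in both (1.10 and 1.05). With a pseudocount of 0.1, BCL2, BCL2A1 and BAK1 were called in both.

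BCL2 was lower in PGCCs, at -0.95 in Hey and -1.41 in SKOV3, which is 2.68-fold and 4.06-fold in TPM. MCL1 was at -0.37 and -0.76. BCL2L1 was higher by 0.52 and 0.69. BCL2A1 in SKOV3 was at 0.160 TPM against a value listed at 0, so no fold is given.

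BAK1 lay close to the 2-fold line in Hey and past it in SKOV3, at 0.95 in Hey and 1.07 in SKOV3 (2.02-fold and 2.15-fold in TPM). BAX was at -0.39 in Hey and 0.52 in SKOV3, and the SKOV3 value turned to -0.28 with the trend on GC content and length removed (described below). All 4 BH3-only members were higher in Hey PGCCs, BID by 0.10, BBC3 by 0.73, BCL2L11 by 0.83 and PMAIP1 by 0.94. In SKOV3 PGCCs, BID was higher by 0.82 and BBC3 by 0.67, while BCL2L11 was at -0.72 and PMAIP1 at -0.93. As deposited, the median over the 10 members was 0.63 in Hey and 0.37 in SKOV3, beside 0 and 0.02 over all genes. In SKOV3, only BCL2L1, BCL2A1, BAK1 and BID stayed above 0 after that adjustment for GC content and length. The SKOV3 median over members thus turned negative. The sign was shared by the lines for 7 of 10 members and for 47.5% of all genes.

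**Figure D2:**
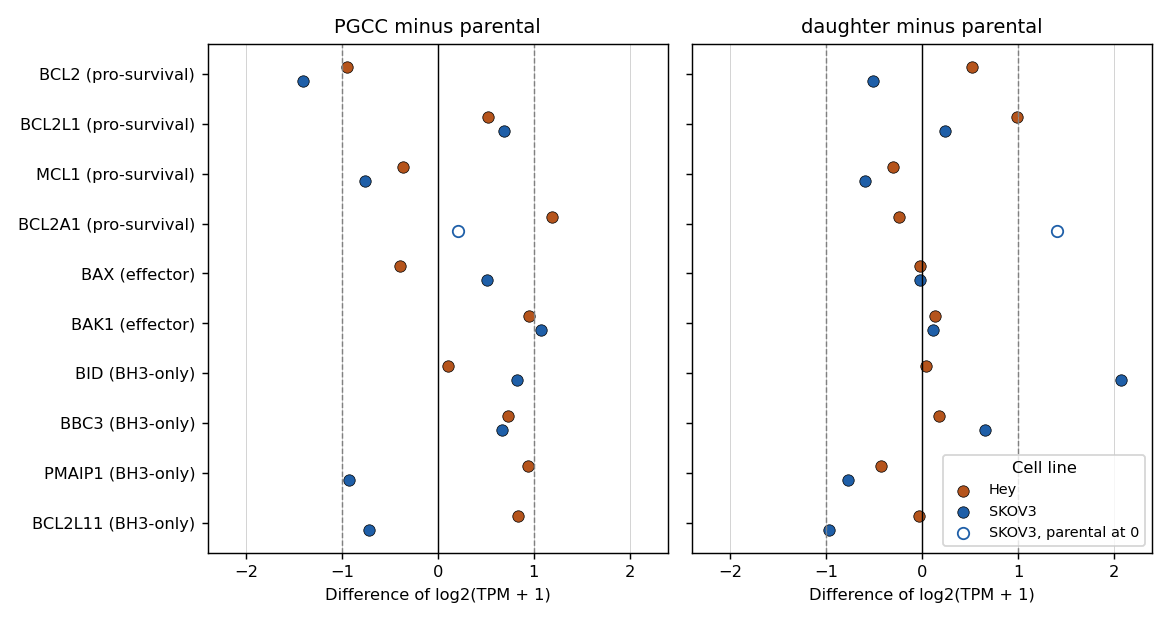
Difference of log2(TPM + 1) for each member against the parental cells of its line, PGCCs on the left and daughter cells on the right; dashed lines mark 2-fold and open circles a parental value listed at 0. On the left BCL2 and BAK1 lie near or past the dashed lines in both lines, and PMAIP1 lies at 0.94 in Hey and -0.93 in SKOV3.

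The lines were then taken as the replicates of each state, with limma on all 14988 genes, cell line as a term and 2 residual degrees of freedom, and Benjamini-Hochberg adjustment over all genes. No member passed an adjusted p of 0.05 in any of the 3 state comparisons. PGCCs against parental cells gave 0.02% of all genes at that threshold (3 genes) and 2.73% at an unadjusted p under 0.05, where 1 member lay. That was BAK1, higher by 1.01 (SE 0.37, unadjusted p = 0.0287, limma adjusted p = 1). BCL2 was at -1.18 (SE 0.51, unadjusted p = 0.0510, limma adjusted p = 1). Daughter against parental cells gave 0.0133% (2 genes), and 3.39% at an unadjusted p under 0.05, with 0 members at either. PGCCs against daughter cells gave 0% (0 genes), and 5.06% at an unadjusted p under 0.05, where BAK1 again was the only member (0.89, SE 0.37, unadjusted p = 0.0470, limma adjusted p = 0.908). The fits used values as deposited, and none was made with the GC and length trend removed (described below). Without that trend, BAK1 was at 0.44 in SKOV3 and 1.01 in Hey against parental cells, and at 0.58 and 1.02 against daughter cells. With 2 lines, such a fit sees few differences, so a p that missed the threshold does not show equal levels.

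Daughter cells were compared with parental cells to see what remained after 30 days. In Hey, 0 of 10 members were called, where 10% of all genes were, 6.31% higher and 3.73% lower. BCL2L1 came nearest, higher by 0.99, and BCL2 was higher by 0.52. The effectors BAX (-0.02) and BAK1 (0.13) and the BH3-only BID (0.04) and BCL2L11 (-0.03) lay near 0, with PMAIP1 at -0.43.

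In SKOV3, 2 of 10 members were called, both higher, where 21.5% of all genes were called, 15.1% higher and 6.34% lower. BID was higher by 2.07, from 4.26 to 21.1 TPM (4.96-fold). BCL2A1 was at 1.66 TPM against a value listed at 0. BCL2L11 was at -0.97, and past the line with median ratio scaling (-1.12), quantile normalization (-1.43) or the GC and length trend removed (-1.17). PMAIP1 was at -0.78, MCL1 at -0.59 and BCL2 at -0.51, and BAX (-0.03) and BAK1 (0.11) lay near 0 as in Hey. The median over members was 0.01 in Hey and 0.04 in SKOV3, beside 0.05 and 0.15 over all genes. The sign was shared for 8 of 10 members, against 46.8% of all genes, but some of these values lie near 0 and turn with the scaling. With median ratio scaling BID in Hey was at -0.09 and BAK1 in SKOV3 at -0.09.

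PGCCs and daughter cells were compared directly, which shares both libraries with the comparisons above. In Hey, 3 of 10 members were called, BCL2A1 higher in PGCCs by 1.44, PMAIP1 by 1.37 and BCL2 lower at -1.47, where 18.1% of all genes were called, 8.13% higher and 9.95% lower. In SKOV3, 2 of 10 were called, BCL2A1 at -1.20 and BID at -1.25, where 23.9% of all genes were called, 9.25% higher and 14.6% lower. BAK1 was higher in PGCCs by 0.82 in Hey and 0.96 in SKOV3, and BCL2 was at -0.89 in SKOV3. BCL2A1 was called in opposite directions in the lines, as were 2.84% of all genes. As deposited, the sign was shared for 5 of 10 members, against 44.3% of all genes. In SKOV3 this difference correlated with GC content across genes (Spearman's correlation 0.455). Adjusting SKOV3 for GC content and length (described below) took BCL2 from -0.89 to -0.55. It also changed the sign of BBC3 (0.02 to -0.78), MCL1 (-0.17 to 0.15), PMAIP1 (-0.15 to 0.39) and BAX (0.54 to -0.11). Once both lines were so adjusted, MCL1, PMAIP1 and BAX shared their sign, and BBC3 did not.

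The untreated lines themselves differed more than any pair of states. Between SKOV3 and Hey parental cells, 5 of 10 members were called, where 35.7% of all genes were called, 24.2% higher in SKOV3 and 11.5% lower. BCL2L11 was the member higher in SKOV3, by 1.71. The lower ones were BBC3 at -2.30, BID at -2.02, BAX at -1.86 and BCL2A1, listed at 0 in SKOV3. BBC3 and BCL2A1 passed the filter on low values through Hey, the line where they are high. MCL1 (-0.49), BCL2L1 (-0.48), BCL2 (0.41), PMAIP1 (0.85) and BAK1 (0.89) did not reach 2-fold.

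Summed by role, the pro-survival members came to 683, 711 and 728 TPM in Hey parental, PGCC and daughter cells and to 449, 368.5 and 352 TPM in SKOV3. MCL1 took 70.0%, 52.1% and 53.2% of it in Hey parental, PGCC and daughter cells, and 76.0%, 54.5% and 64.1% in SKOV3. BCL2L1 took 21.1%, 29.2% and 39.5% in Hey and 22.9%, 45.1% and 34.6% in SKOV3. The ratio of MCL1 to BCL2L1 was 3.31 in the parental cells of each line, 1.78 and 1.21 in the PGCCs of Hey and SKOV3, and 1.35 and 1.85 in their daughter cells. In both lines, therefore, both treated libraries had less MCL1 per BCL2L1 than the parental library. BCL2A1 took 8.32%, 18.5% and 6.57% of the sum in Hey and at most 0.471% in SKOV3.

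The effector sum was 257, 209 and 254 TPM in Hey parental, PGCC and daughter cells and 88.0, 141 and 88.5 TPM in SKOV3. There were 22.9, 8.62 and 20.4 BAX transcripts per BAK1 transcript in the same Hey states, and 3.24, 2.16 and 2.92 in SKOV3. The ratio was lowest in the PGCCs of each line. All sums and ratios here are of TPM as deposited. With the GC and length trend removed (described below), SKOV3 PGCCs against parental cells were at -0.28 for BAX and 0.44 for BAK1. The BH3-only sum was 69.0, 116 and 59.5 TPM in Hey and 86.7, 52.4 and 68.8 TPM in SKOV3, highest in PGCCs in Hey and lowest in PGCCs in SKOV3. PMAIP1 made up 50.9% to 68.9% of it in Hey and 62.9% to 86.3% in SKOV3.

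**Figure D3:**
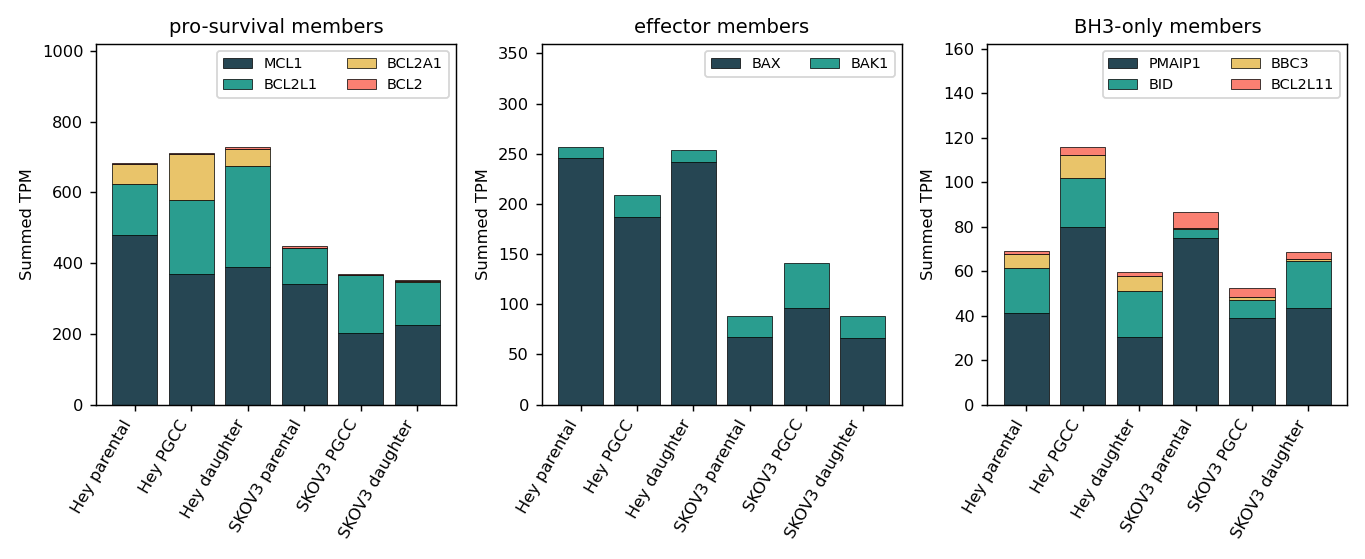
Summed TPM of the pro-survival, effector and BH3-only members in each of the 6 libraries, stacked by gene; the vertical axes differ. The MCL1 block is a smaller share of the pro-survival bar in PGCCs and daughter cells (52.1% to 64.1%) than in parental cells (70.0% and 76.0%).

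The SKOV3 PGCC library differed from its parental library along GC content. Across 13468 genes with a canonical transcript in GENCODE, Spearman's correlation of the difference with GC content was 0.720 in SKOV3, and -0.044 in Hey. These are descriptions across genes of 1 pair of libraries, and genes are not independent replicates. The members span the range from PMAIP1 (36.7% GC), BCL2A1 (40.4%), BCL2 (44.4%), MCL1 (45.1%), BCL2L11 (45.5%) and BID (48.0%) to BCL2L1 (56.6%), BAK1 (58.6%), BAX (60.8%) and BBC3 (69.7%). In SKOV3 PGCCs the 4 members above 56% GC were all higher than in parental cells.

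With the trend on GC content and length removed, BAK1 in SKOV3 PGCCs went from 1.07 to 0.44 and lost its call. BBC3 went from 0.67 to -0.49 and BAX from 0.52 to -0.28, so both changed sign, and BCL2L1 went from 0.69 to 0.18. PMAIP1 went from -0.93 to -0.24. BCL2 (-1.41 to -1.33) and BID (0.82 to 0.89) hardly moved. In Hey, where the correlation with GC content was -0.044, removing the trend on GC content and length took BAK1 from 0.95 to 1.01. The same step took BCL2A1 in Hey from 1.19 to just under the line. The part of GC content in the SKOV3 differences was not tested further.

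**Figure D4:**
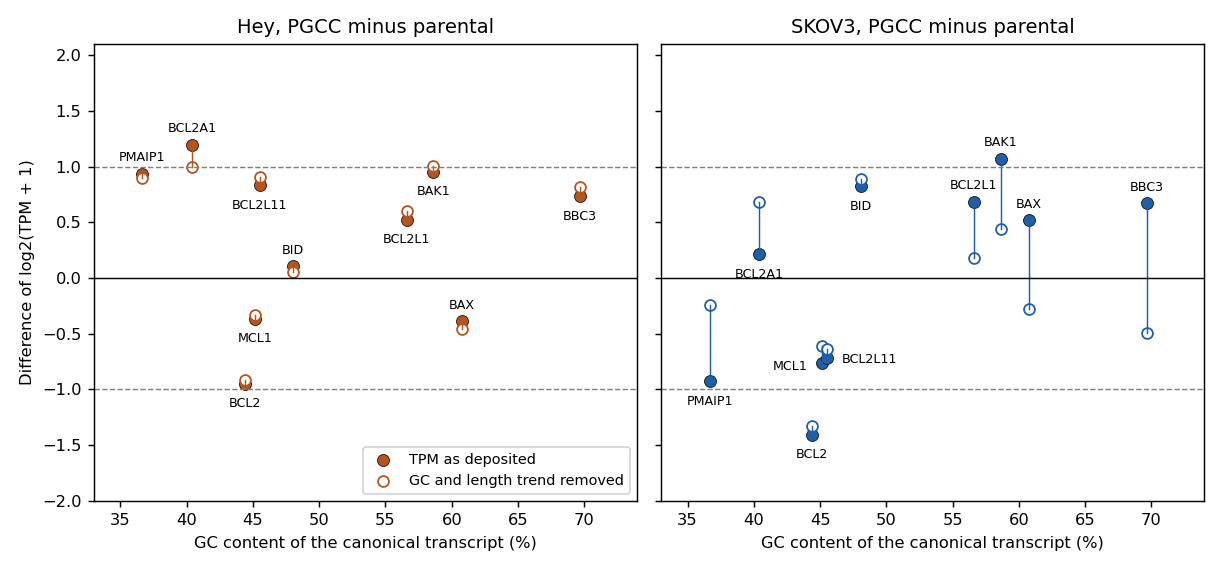
Difference of log2(TPM + 1) between PGCC and parental cells against GC content of each member's canonical transcript in percent; filled points are the values as deposited and open points those with the GC and length trend removed. In SKOV3 the GC-rich members BAK1, BAX and BBC3 drop, BAK1 from 1.07 to 0.44, while BCL2 stays at or beyond -1.33.

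Other genes of the pathway were read from 5 lists of 49 genes. Their values are as deposited, without removal of the GC and length trend seen in SKOV3 PGCCs. Against parental cells, the shares of all genes called were 12.9% in Hey PGCCs, 14.9% in SKOV3 PGCCs, 10% in Hey daughter cells and 21.5% in SKOV3 daughter cells. Of 13 further BCL2 family genes, 10 passed the filter on low values. In PGCCs against parental cells, 2 of the 10 were called in Hey (BIK and BMF) and 3 in SKOV3 (BOK, BAD and BMF), all higher. BMF, a BH3-only gene linked to the cytoskeleton, was the only gene of the 5 lists called the same way in Hey and in SKOV3, at 1.27 in Hey and 1.31 in SKOV3. Its TPM was 1.27, 4.48 and 0.484 in Hey parental, PGCC and daughter cells and 1.71, 5.70 and 1.98 in SKOV3, so PGCCs stood apart from both other states in each line. Over both lines BMF had an unadjusted p of 0.0386 (limma adjusted p = 1). BMF was named because of these same differences, so that p is not separate support. The most abundant of this list, the mitophagy receptors BNIP3L and BNIP3, averaged 76.2 and 36.9 TPM. Against parental cells, BIK was called higher and BNIP3 lower in Hey daughter cells, and none of the 10 was called in SKOV3 daughter cells.

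Of 11 genes of the apoptosome and caspases, led by CYCS (cytochrome c, mean 176 TPM) and its companion in release DIABLO (75.9 TPM), none was called in Hey PGCCs and 1 in SKOV3 PGCCs, ENDOG, higher by 1.05. In daughter cells 1 was called in Hey, AIFM1, higher, and none in SKOV3. Of 6 caspase inhibitors, 3 were called in Hey PGCCs, BIRC3 higher by 1.92, CFLAR higher by 1.03 and BIRC5 at -2.29, and none in SKOV3 PGCCs. BIRC5 (survivin) also acts in mitosis, and BIRC2, the most abundant, averaged 120.1 TPM. In SKOV3 daughter cells 2 were called, BIRC3 higher by 2.64 and CFLAR by 1.54, and none in Hey daughter cells. Beside these counts, 12.9% and 14.9% of all genes were called in Hey and SKOV3 PGCCs, and 10% and 21.5% in their daughter cells.

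Of 9 genes of the death receptor arm, led by TNFRSF1A (mean 167 TPM) and TNFRSF10B (73.6 TPM), 1 was called in Hey PGCCs, CASP10, higher by 1.69, and none in SKOV3 PGCCs. In SKOV3 daughter cells the TRAIL receptors TNFRSF10A and TNFRSF10B were called higher, by 1.11 and 1.63, and none of the 9 was called in Hey daughter cells. Of 10 regulators of the members, led by TMBIM6 (mean 562 TPM) and VDAC2 (343 TPM), MDM2 was called in Hey PGCCs, higher by 2.47 from 121 to 672 TPM, and none in SKOV3 PGCCs. MDM2 was also called higher in Hey daughter cells, and none of the 10 was called in SKOV3 daughter cells. BMF was named by a rule on its differences in both lines, and the abundant genes by their mean. The other names were picked after their values were seen.

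**Figure D5:**
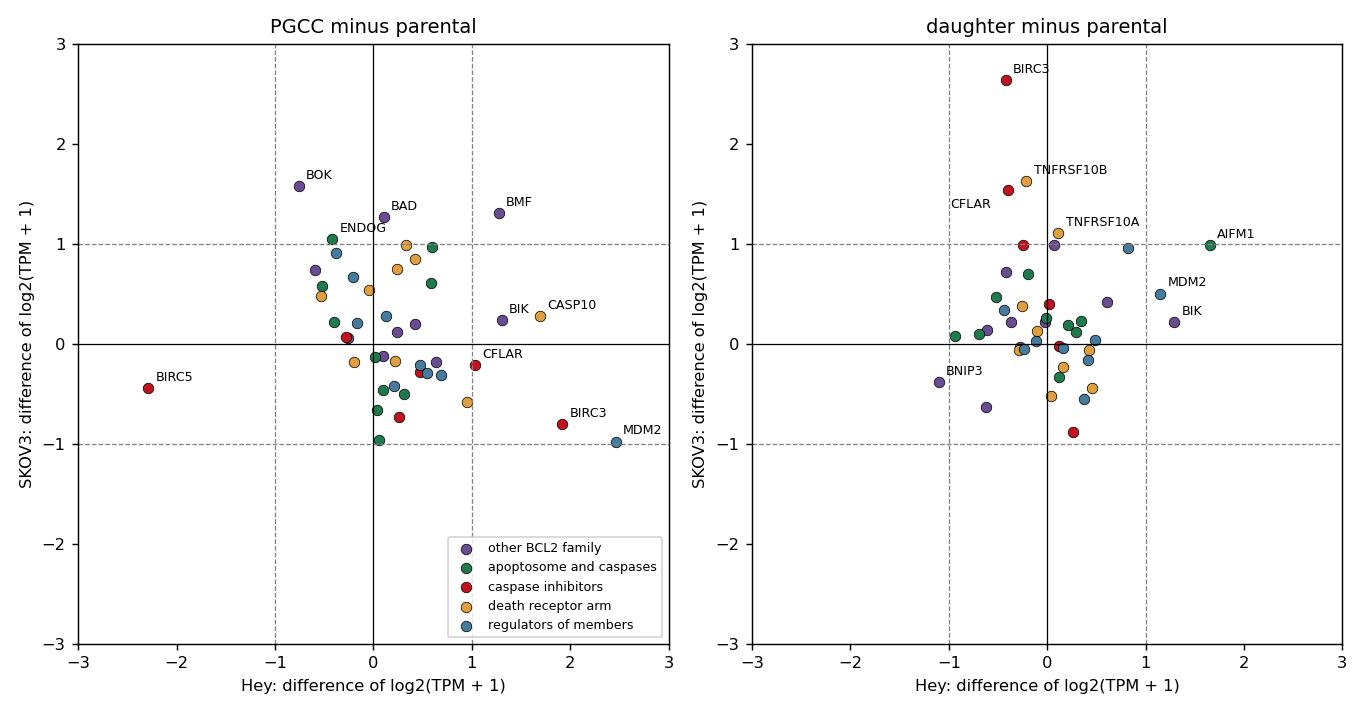
Difference, for each list gene plotted, of log2(TPM + 1) in Hey (horizontal) against SKOV3 (vertical), PGCCs minus parental cells on the left and daughter minus parental cells on the right; dashed lines mark 2-fold. BMF, at 1.27 and 1.31, is the only gene past the lines in both on the left, and none is on the right.

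The 3 members with the widest range over the 6 libraries were BCL2A1, BBC3 and BID, and the genes nearest to each in profile were sought among 10792 genes averaging 5 TPM or more. For BID these were ADM2 and SAMD4A (root mean square distance 0.113 and 0.158, Pearson's r 0.990 in both). For BBC3 they were NRP1 and PGPEP1 (0.219 and 0.252, r 0.982 and 0.979). For BCL2A1 they were BEX4 and LAYN (0.489 and 0.514, r 0.989 and 0.987). LAYN, like BCL2A1, was listed at 0 in SKOV3 parental cells, and at 41.0 to 55.0 TPM in Hey. For BCL2A1 and BBC3 all 3 Hey libraries lie above all 3 of SKOV3, and for BID the SKOV3 parental and PGCC libraries lie below the other 4, so these r values over 6 libraries largely describe those gaps.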

How the data were processed

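Total RNA of 6 libraries (Hey and SKOV3; parental, PGCC and daughter; 1 per group) was sequenced. Per the labels, the processing notes name fastp, Salmon 0.14.1 and hg38; the annotation release is not given in the sources used here. The authors deposited TPM per gene symbol, which sum to the same nominal total per library and hold no read counts, so no counting error was computed. Differences of log2(TPM + 1) were computed for genes averaging 1 TPM or more and called at 2-fold. limma 3.58.1 (R 4.3.3), with state and cell line terms and a trended prior, was fitted over both lines, and p-values adjusted by Benjamini-Hochberg. GC content and length came from GENCODE 44 canonical transcripts, and the trend was removed by lowess (fraction 0.3, 2 passes; statsmodels 0.14.6). Start regions came from RefSeq. The calling, limma and trend removal steps were run on simulated data with set noise and known changes. That checks the code, and it does not test the calls made on these libraries.

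Members and gene lists were chosen with earlier results of these data known. By rule, the text names all members, list genes called alike in Hey and SKOV3, and the 2 most expressed genes of each list. The rule also names the 2 nearest profiles of the 3 members of widest range. Further list genes, called in a single line or in opposite directions, were named after their values were seen. Alternatives were a pseudocount of 0.1, no filter, a filter at 5 TPM, median ratio scaling, quantile normalization, leaving out mitochondrial genes, thresholds of 1.5-fold and 3-fold, and removing the GC and length trend. Results for some genes are not reported here.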

Additional observations from a re-analysis of the deposited data

Results flagged for a closer look

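BCL2A1 drew attention because its difference between PGCCs and daughter cells had opposite signs in the lines, 1.44 in Hey and -1.20 in SKOV3 on the log2(TPM + 1) scale. With 1 library per group, the difference between the lines was not tested. The Hey values are 131 TPM in PGCCs and 47.9 in daughter cells, whereas the SKOV3 values are 0.160 and 1.66 TPM, near the bottom of the scale. The SKOV3 call was lost once the trend on GC content and length was taken out (-0.96), under quantile normalization (-0.82) and at the 3-fold threshold. As 2.84% of all genes were called in opposite directions in this comparison, BCL2A1 is 1 of 426 such genes.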

How the results depend on the processing

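No difference of a called member changed sign under the alternatives, while 21 values of members that were not called did, and limma passed 0 members under each of its 8 alternatives (smallest adjusted p 0.824). Below, the share of all genes called follows in brackets. The number of members called for PGCCs against parental cells in Hey was 1. It became 4 (21.1%) with a pseudocount of 0.1, 2 (13.7%) with median ratio scaling and 3 (12.3%) with quantile normalization. The count was 3 (13.7%) without mitochondrial genes, 6 (31.5%) at 1.5-fold and 0 (4.66%) at 3-fold. In SKOV3, 2 became 4 (21.7%) with a pseudocount of 0.1 and 1 (14.4%) with the filter at 5 TPM, which drops BCL2. The SKOV3 count was 8 (39.2%) at 1.5-fold, 0 (3.02%) at 3-fold and 1 (4.88%) with the GC and length trend removed. For daughter against parental cells, 0 in Hey became 1 (10.7%) without mitochondrial genes, BCL2L1, and 1 (27.9%) at 1.5-fold. In SKOV3, 2 became 4 (27.4%) with a pseudocount of 0.1, 6 (41.7%) at 1.5-fold and 1 (9.82%) at 3-fold. BCL2L11 made it 3 with median ratio scaling (19.3%) and with the trend removed (18.6%). Quantile normalization left 2 (19.5%) in SKOV3, with BCL2A1 just under the line and BCL2L11 called in its place (-1.43). For PGCCs against daughter cells, 3 in Hey became 5 (39.2%) at 1.5-fold, 0 (6.91%) at 3-fold and 2 (17.7%) with the filter at 5 TPM. The Hey count was 4 with a pseudocount of 0.1 (26.3%) and with the trend removed (16.5%). In SKOV3, 2 became 4 (46.7%) at 1.5-fold, 0 (9.93%) at 3-fold and 1 (17.8%) with the trend removed. The SKOV3 count was 3 with a pseudocount of 0.1 (29.9%), with median ratio scaling (22.3%) and without mitochondrial genes (25.8%). Between the parental lines, 5 became 3 (33.1%) with the filter at 5 TPM and 7 (56.6%) at 1.5-fold. The cause was not tested except where the construction shows it. No paired analysis was possible because each group had 1 library, beyond the cell line term of limma, which pairs the states within a line; without it 0 members passed as well. The precision of BCL2, BBC3, BCL2L11 and SKOV3 BCL2A1, all at low TPM, could not be computed without counts.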

Other observations

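Beside BCL2A1, the pathway genes BIRC3, CFLAR and MDM2 were called in opposite directions in the lines between PGCCs and daughter cells, as were 2.84% of all genes. They were picked after their values were seen, and the differences between the lines were not tested. BIRC3, from the list of caspase inhibitors, and the caspase-8 inhibitor CFLAR were higher in the PGCCs of Hey and in the daughter cells of SKOV3. Both are known NF-κB targets like BCL2A1, and the part of NF-κB was not tested. BIRC3 stood at 23.3, 90.9 and 17.1 TPM in Hey parental, PGCC and daughter cells and at 28.3, 15.7 and 181 TPM in SKOV3. CFLAR stood at 28.3, 58.8 and 21.3 TPM in Hey and at 33.4, 28.7 and 99.0 TPM in SKOV3. MDM2, which encodes a ubiquitin ligase, stood at 121, 672 and 269 TPM in Hey and at 36.3, 18.0 and 51.9 TPM in SKOV3.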
